A study of Mus musculus with 60 samples.

Results

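The genes examined were 9 members of the cytochrome P450 families Cyp2j and Cyp4 and of the epoxide hydrolases, namely Cyp2j5, Cyp2j6, Cyp2j9, Cyp4b1, Cyp4f13, Cyp4f14, Cyp4f16, Ephx1 and Ephx2. They were chosen by symbol, with the level of Cyp4b1 in Set 1 of the single organoids already known, and were found as 9 of 23440 genes in the count table of dome and suspension cultures, 9 of 23068 in that of bulk passages and 9 of 28773 in that of single organoids. All material was cholangiocyte-derived organoids, which are hollow structures grown from bile duct fragments of the liver, from C57BL/6N mice that were 3 months old by the series description and carried no transgene. In the culture experiment, 3 organoid pools of 2, 4 and 3 mice were each grown as Matrigel domes and as a shaken suspension in 10% Matrigel, giving 3 dome and 3 suspension libraries. In the passage experiment, Sets 1, 3 and 4 were sequenced as bulk cultures early (passage 4) and late (passage 11), each as 2 technical replicates that were summed here. The single organoids were picked one by one from suspension cultures, 8 from Set 1 at passage 11, 10 from Set 2 at passage 3, 5 from Set 3 at passage 3 and 12 from Set 4 at passage 4. Each set came from the liver of 1 mouse, so that mouse, passage and set cannot be told apart between sets, and p-values between sets measure only the spread among organoids of those animals.

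Cytochrome P450 enzymes are haem proteins that insert an oxygen atom into their substrates with electrons from the reductase Por. Cyp2j enzymes are epoxygenases and subterminal hydroxylases of arachidonate and linoleate, Cyp4f enzymes hydroxylate the terminal carbon of leukotrienes and long-chain fatty acids, and Cyp4b1 hydroxylates shorter fatty acids and activates a range of xenobiotics. Ephx1, the microsomal epoxide hydrolase, opens epoxides of xenobiotics, and Ephx2, the soluble enzyme, turns the fatty acid epoxides made by epoxygenases into diols. The liver is a major site of both families, most of it in hepatocytes rather than in bile duct cells.

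In the GENCODE annotation of GRCm38, the 3 Cyp2j genes lie side by side on the minus strand of chromosome 4 within 148.0 kb, Cyp2j6 at chr4:96516138-96553661, Cyp2j9 at chr4:96568429-96591578 and Cyp2j5 at chr4:96628773-96664154. Cyp4b1 lies on the same chromosome at chr4:115624725-115647723. On chromosome 17, Cyp4f14 at chr17:32905070-32917342 and Cyp4f13 at chr17:32924688-32947402 are neighbours on the minus strand within 42.3 kb, and Cyp4f16 lies on the plus strand at chr17:32536558-32551798. Ephx1 is at chr1:180976210-181020904 and Ephx2 at chr14:66084374-66124500. The Cyp2j and Cyp4f genes are clusters of near copies and Ephx1 overlaps the pseudogene Gm36961, so the assignment of reads among them is uncertain.

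The 250 bases before the RefSeq start (GRCm38.p6) are printed below for 4 members whose levels rose in domes and for Ephx1, the member that was lowest there relative to suspension, so that members that moved together can be read beside one that did not. Capitals mark matches on either strand to TATAAA, to the CCAAT box (read from the opposite strand in Cyp2j6, Cyp4f13 and Cyp4f16), to the antioxidant response element core TGACNNNGC and to the nuclear receptor motif AGGTCA, which is also contained in the longer repeat of it with a spacing of 1 base.
Cyp4b1, chr4:115647722-115647971, minus strand: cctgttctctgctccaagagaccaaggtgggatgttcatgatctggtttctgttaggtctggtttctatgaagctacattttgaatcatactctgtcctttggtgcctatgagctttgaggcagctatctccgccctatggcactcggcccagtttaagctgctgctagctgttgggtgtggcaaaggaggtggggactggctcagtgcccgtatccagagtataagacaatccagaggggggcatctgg
Cyp2j6, chr4:96553652-96553901, minus strand: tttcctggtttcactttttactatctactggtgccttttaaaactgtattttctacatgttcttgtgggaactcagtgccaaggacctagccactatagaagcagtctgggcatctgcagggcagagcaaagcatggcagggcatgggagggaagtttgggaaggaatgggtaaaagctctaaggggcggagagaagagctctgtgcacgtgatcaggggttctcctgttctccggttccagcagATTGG
Cyp4f13, chr17:32947362-32947611, minus strand: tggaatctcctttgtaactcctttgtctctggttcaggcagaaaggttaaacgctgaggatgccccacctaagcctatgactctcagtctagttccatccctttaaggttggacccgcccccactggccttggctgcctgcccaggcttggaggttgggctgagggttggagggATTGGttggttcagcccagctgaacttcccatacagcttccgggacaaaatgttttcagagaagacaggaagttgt
Cyp4f16, chr17:32536307-32536556, plus strand: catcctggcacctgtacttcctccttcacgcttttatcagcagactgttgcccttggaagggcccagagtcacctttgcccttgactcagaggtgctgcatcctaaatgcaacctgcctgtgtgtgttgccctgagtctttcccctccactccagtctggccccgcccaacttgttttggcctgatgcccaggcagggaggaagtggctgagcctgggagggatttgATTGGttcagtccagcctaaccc
Ephx1, chr1:181017570-181017819, minus strand: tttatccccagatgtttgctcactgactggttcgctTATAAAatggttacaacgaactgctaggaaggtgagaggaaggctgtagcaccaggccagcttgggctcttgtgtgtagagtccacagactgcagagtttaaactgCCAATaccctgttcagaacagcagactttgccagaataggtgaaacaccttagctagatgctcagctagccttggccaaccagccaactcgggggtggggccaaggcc

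Promoters were found for 8 of the 9 members, with 11 starts in all. A member is counted below if any of its starts matched, whereas the shares over all promoters count each start singly. The CCAAT letters occurred in 5 of these 8, against 33.8% of 32851 promoters of the same length, and those 5 included Cyp2j6, Cyp4f13 and Cyp4f16, which rose in domes, as well as Ephx1, which did not. TATAAA was found in 2 of 8 (Ephx1 and Cyp2j5), against 12.4% of all promoters. The core TGACNNNGC was found in 1 member, at 1 of the starts of Cyp4f14, against 10.2%, and AGGTCA in 1 member, Cyp2j5, against 14%. The repeat with a spacing of 1 base was in none of the 8 and in 0.0335% of all promoters. Cyp4b1 and Cyp2j9 held none of these letters in this window. The GC content over the 11 starts ranged from 44.0% to 56.8%, around the median of 52.4% over all promoters, and each start held between 0 and 4 CpG dinucleotides where the median promoter held 6.

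Total counts ranged from 1776490 to 14761853 in the dome and suspension libraries, with dome replicate 1 the deepest, from 1486347 to 5532630 in the summed bulk cultures and from 1059002 to 11175868 in the 35 organoids, so 3 counts corresponded to as little as 0.207 and as much as 2.76 CPM (depth-normalised counts). CPM were computed from effective library sizes and were normalised separately in each table, so levels are compared only within a table and, because lengths of the counted fragments are not known, only within a gene. The 14 ductal markers were all detected in the dome and suspension libraries and in the summed bulk cultures. They summed to 8150 to 18753 CPM in the former and to 5880 to 8926 CPM in the latter. Endothelial and mesenchymal markers stayed at or below 3.83 CPM in every organoid and at or below 2.59 CPM in every culture. In these bulk samples fewer cells of a type and less RNA per cell cannot be told apart.

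The first comparison asked how the culture format affects expression. In domes, 6 of the 9 genes were called higher and none lower, against 15% and 14.7% of 12699 tested genes. The call of Cyp4f14 among them rested on dome replicate 1. With the pool as a block, same-numbered libraries being taken as the same pool, 5 rose and Ephx1 fell. Cyp4b1, Ephx2, Cyp2j6, Cyp4f13 and Cyp4f16 rose by between 0.96 and 2.42 on the log2 scale, with no overlap between dome and suspension cultures. Ephx1 had the opposite sign in this comparison.

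Cyp4b1 stood at 177, 221 and 219 CPM in dome replicates 1, 2 and 3 and at 50.5, 40.2 and 25.1 CPM in the suspension replicates. Every dome culture was above every suspension culture, with a log2 fold-change of 2.42 (SE 0.27, edgeR quasi-likelihood test, adjusted p = 0.000813, n = 3 cultures per condition). Cyp2j6 was at 175, 109 and 90.2 CPM in domes and at 41.0, 37.4 and 35.2 CPM in suspension. The suspension cultures lay close together and the domes were spread over a wider range, the highest being replicate 1. The log2 fold-change of Cyp2j6 was 1.74 (SE 0.26, edgeR adjusted p = 0.00206), and since the study picked this gene out of the same comparison, the call is not independent of that choice.

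Among the Cyp4f genes, Cyp4f13 was at 48.3, 46.9 and 41.2 CPM in domes and 18.5, 23.9 and 19.7 CPM in suspension. Both groups were narrow and lay apart, with a log2 fold-change of 1.14 (SE 0.20, edgeR adjusted p = 0.00367). Cyp4f16 reached 32.1, 22.7 and 24.2 CPM in domes and 14.1, 9.22 and 17.4 CPM in suspension, a log2 fold-change of 0.96 (SE 0.27, edgeR adjusted p = 0.0236). The groups of Cyp4f16 did not overlap, but its call was lost without dome replicate 1 (0.76, edgeR adjusted p = 0.0913), suspension replicate 1 (0.99, 0.0743) or suspension replicate 2 (0.75, 0.0966). Over all alternatives the adjusted p of Cyp4f16 ran from 0.00458 to 0.0966.

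Cyp4f14, which also hydroxylates vitamins E and K, was at 149 CPM in dome replicate 1 but at 3.67 and 2.20 CPM in the other two domes, against 5.89, 2.60 and 7.23 CPM in suspension. A single culture was high and the rest overlapped. The log2 fold-change was 3.37 (SE 1.12, edgeR adjusted p = 0.0458), and without dome replicate 1 it was -0.96 (adjusted p = 0.271). The call was also lost without suspension replicate 1, 2 or 3 (adjusted p = 0.120, 0.135 and 0.119, with log2 fold-changes of 3.41, 3.07 and 3.68). With the pool as a block, Cyp4f14 had a log2 fold-change of 2.01 and an adjusted p of 0.108, and over all alternatives the adjusted p ran from 1.73e-31 to 0.271.

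The epoxide hydrolases had opposite signs. Ephx2 was at 71.3, 52.1 and 55.0 CPM in domes and at 21.04, 22.9 and 16.1 CPM in suspension, so the lowest dome was above the highest suspension culture. The log2 fold-change of Ephx2 was 1.60 (SE 0.22, edgeR adjusted p = 0.00164). Ephx1 was at 577, 243 and 166 CPM in domes and at 538, 645 and 781 CPM in suspension. Dome replicates 2 and 3 lay below all suspension cultures and dome replicate 1 lay within their range. The log2 fold-change of Ephx1 was -0.99 (SE 0.40, edgeR adjusted p = 0.0881). With the pool as a block it was -1.18 and passed the test (adjusted p = 0.0252), and without dome replicate 1 it was -1.68 (adjusted p = 0.00275). Over all alternatives the adjusted p of Ephx1 ran from 0.000789 to 0.228.

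Cyp2j5, a renal and hepatic epoxygenase, and Cyp2j9, a subterminal hydroxylase best known from brain, were low, at or below 3.65 CPM in all 6 cultures. Cyp2j5 was at 3.65, 0 and 1.10 CPM in domes and at 2.95, 1.42 and 2.14 CPM in suspension, and Cyp2j9 was at 3.65, 0.733 and 0 CPM in domes and at 0.210, 0.946 and 1.03 CPM in suspension. For both genes dome replicate 1 was the highest culture and the groups overlapped. Their log2 fold-changes were 0.17 (SE 0.58) and 1.52 (SE 0.74), with edgeR adjusted p = 0.855 and 0.148.

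**Figure D1:**
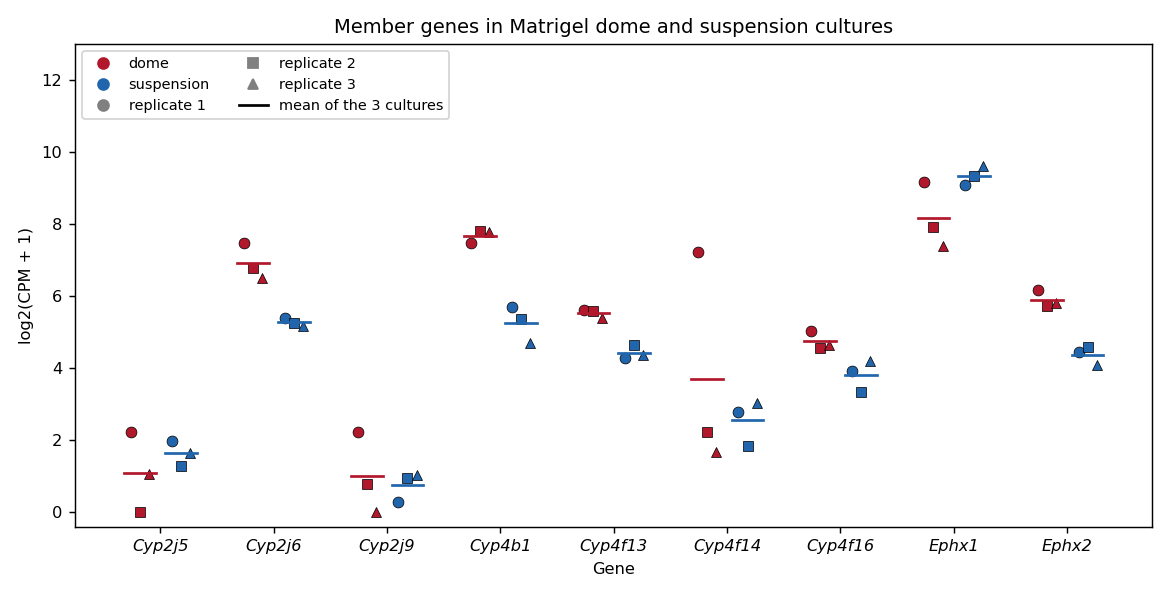
Level of each of the 9 genes in the 3 dome and 3 suspension cultures, as log2(CPM + 1) on the vertical axis. Points are cultures, with the marker shape giving the replicate, and lines are means of the 3 cultures. Dome cultures lie above suspension cultures without overlap for 5 genes, and dome replicate 1 stands alone for Cyp4f14.

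Across the genome, 29.8% of 12699 tested genes passed in this comparison. Of all tested genes, 15% were called higher and 14.7% lower, and 47.4% had groups without overlap, 21.6% with domes higher. The 6 of 9 members called and the 5 of 9 without overlap are to be read against these shares. The median log2 fold-change was 1.52 over the 9 members and -0.04 over all tested genes. The median over the members is the value of Cyp2j9, a gene at low counts that was not called. The 12 proliferation markers summed to 185 to 426 CPM in domes and 862 to 1081 CPM in suspension, all 12 passing the test as lower in domes. Hepatocyte markers summed to 619 to 968 CPM in domes and 315 to 688 CPM in suspension, with 4 of 9 tested markers higher and 1 lower (3 and 2 with the pool as a block). The macrophage list, mostly Cd14, summed to 207 to 281 CPM in domes against 525 to 649 CPM in suspension. Domes had less Cd14 (log2 fold-change -1.60, SE 0.29, edgeR adjusted p = 0.00453), and Cd68, a lysosomal marker of macrophages, was higher (3.06, SE 0.84, adjusted p = 0.0223), a call kept in 3 of 6 fits with a culture left out. Mitochondrial genes took 1.64% to 2.02% of counts in domes and 3.72% to 4.02% in suspension. The part of these differences in the P450 and hydrolase levels was not tested.

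Genes of the same pathways moved as follows in domes. Of the Cyp2c arachidonate epoxygenases, a second P450 subfamily that makes epoxides from arachidonate, 6 of 15 could be tested, 5 rose and none fell, with a median log2 fold-change of 4.33. Cyp2c65 averaged 64.8 ± 30.4 CPM (SD, n = 3) in domes and 7.53 ± 2.45 CPM in suspension, a log2 fold-change of 3.10 (SE 0.36, edgeR adjusted p = 0.000957). Cyp2c29 averaged 63.7 ± 66.3 CPM in domes and 1.11 ± 0.193 CPM in suspension, and Cyp2c55 averaged 84.1 ± 117 CPM against 1.39 ± 0.261 CPM. Both Cyp2c29 and Cyp2c55 varied as much among domes as their mean, and their log2 fold-changes were 5.98 (SE 0.78, adjusted p = 0.00137) and 6.00 (SE 1.07, adjusted p = 0.00432). Like the Cyp2j and Cyp4f genes, the Cyp2c genes are near copies of each other.

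Of the 5 electron donors, Por and Cyb5r3 rose in domes, and Cyb5r3 was called in 3 of 6 fits with a culture left out. Por, the reductase that feeds all microsomal P450 enzymes, averaged 105 ± 33.0 CPM in domes and 27.4 ± 1.99 CPM in suspension, a log2 fold-change of 1.92 (SE 0.24, edgeR adjusted p = 0.00125). In the lipoxygenase branch 4 of 5 tested genes rose (3 with the pool as a block). Mgst3, a glutathione transferase of leukotriene synthesis, averaged 1366 ± 481 CPM in domes and 291 ± 55.8 CPM in suspension, a log2 fold-change of 2.23 (SE 0.29, edgeR adjusted p = 0.00139). The cyclooxygenase branch was divided, with 4 of 13 genes higher and 4 lower, among them Cbr1, a carbonyl reductase that acts on prostaglandins (log2 fold-change 1.87, SE 0.29, adjusted p = 0.00236) and Akr1b3, an aldose reductase (-1.56, SE 0.25, adjusted p = 0.00295). Of 11 genes that release or recycle arachidonate, 2 rose and 1 fell. Of the other Cyp2j, Cyp4 and epoxide hydrolase genes, 5 of 25 could be tested and 1 rose, Cyp4f40 (log2 fold-change 1.71, SE 0.58, adjusted p = 0.0482), which is named here after its value was seen. With the pool as a block none of these 5 passed.

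Among genes known to act on these enzymes, 6 of 11 tested nuclear receptors and other regulators rose and none fell. The risers included Rxrb, a common partner of nuclear receptors (log2 fold-change 1.07, SE 0.21, edgeR adjusted p = 0.00601), and Keap1, the inhibitor of Nrf2 (1.24, SE 0.23, adjusted p = 0.00470). Of the Nrf2 targets, 7 of 13 rose and 1 fell, led by the glutathione transferase Gsta1 (3.66, SE 0.29, adjusted p = 0.000367) and the haem oxygenase Hmox1 (3.58, SE 0.45, adjusted p = 0.00117). Of the PPAR-alpha targets, 7 of 17 rose and 1 fell (7 and 2 with the pool as a block), including the peroxisomal thiolase Acaa1a (1.55, SE 0.17, adjusted p = 0.000817). The medians of these lists were 0.83, 1.01 and 0.57, beside -0.04 over all tested genes.

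The second comparison asked how expression shifts with time in culture, between passage 4 and passage 11 of the same 3 bulk cultures. The passage of each library was taken from its label, which no gene measured here can check, and the sign of every passage value rests on it. The study is divided on the direction of its cell cycle terms. Its text has them among genes lower at passage 11, and its figure legend has the same panel among genes higher there. Of the 9 genes, Cyp4b1 and Cyp4f14 were called higher in the libraries labelled passage 11 and none was called lower. This compares with 20.3% of 13738 tested genes called, 10.1% in each direction, and 39.5% of genes without overlap between the groups. The median log2 fold-change was 0.11 over the 9 genes and -0.05 over all tested genes.

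Cyp4b1 went from 3.37 to 17.5 CPM in Set 1, from 12.1 to 31.4 CPM in Set 3 and from 4.75 to 10.2 CPM in Set 4. It was higher at passage 11 in 3 of 3 sets, and in each set both technical replicates at passage 11 exceeded both at passage 4. The groups themselves overlapped, because Set 3 was already above the others at passage 4. The log2 fold-change was 1.60 (SE 0.46, edgeR adjusted p = 0.0345), and the changes within Sets 1, 3 and 4 were 2.23, 1.34 and 1.03. The call was lost without passage 11 of Set 1 (1.73, adjusted p = 0.0550) or Set 3 (1.09, 0.163) and without passage 4 of Set 1 (1.318, 0.0969) or Set 4 (1.37, 0.107). Over all alternatives the adjusted p of Cyp4b1 ran from 6.63e-09 to 0.163.

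Cyp4f14 went from 1.04 to 2.02 CPM in Set 1, from 0.576 to 26.4 CPM in Set 3 and from 1.41 to 0.636 CPM in Set 4. The rise lay in Set 3. The log2 fold-change was 3.41 (SE 1.02, edgeR adjusted p = 0.0392) and was 0.63 (adjusted p = 0.567) without passage 11 of Set 3. It was also lost without passage 4 of Set 1 (3.44, 0.0987), Set 3 (3.11, 0.121) or Set 4 (3.77, 0.0819), and with DESeq2 (3.30, 0.100) or limma-voom (2.42, 0.181).

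Cyp4f13 went from 29.6 to 14.1 CPM in Set 1, from 19.2 to 16.1 CPM in Set 3 and from 17.6 to 15.9 CPM in Set 4. All passage 11 libraries of Cyp4f13 lay below all passage 4 libraries, the only member without overlap, and the change did not pass the test (log2 fold-change -0.52, SE 0.23, edgeR adjusted p = 0.137). Cyp4f16 went from 10.4 to 20.6 CPM, from 15.7 to 21.1 CPM and from 18.1 to 17.8 CPM in Sets 1, 3 and 4 (0.43, SE 0.22, adjusted p = 0.200). The first of these pairs was apart and the last was level.

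For Cyp2j6, Ephx1 and Ephx2 the sets moved in different directions. Their log2 fold-changes between the passages, fitted without pairing by set, were between -0.14 and 0.11, with edgeR adjusted p from 0.773 to 0.810. Ephx2 went from 14.8 to 22.7 CPM in Set 1 and from 29.2 to 10.2 CPM in Set 4. Ephx1 reached 489 CPM in Set 1 and 289 CPM in Set 4 at passage 11, from 353.6 and 369 CPM at passage 4. Cyp2j6 went from 55.1 to 69.0 CPM in Set 3 and from 46.6 to 33.7 CPM in Set 4. Cyp2j5 and Cyp2j9 stayed at or below 1.76 CPM in all 6 cultures, from at most 10 counts, with adjusted p = 0.894 and 0.911.

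**Figure D2:**
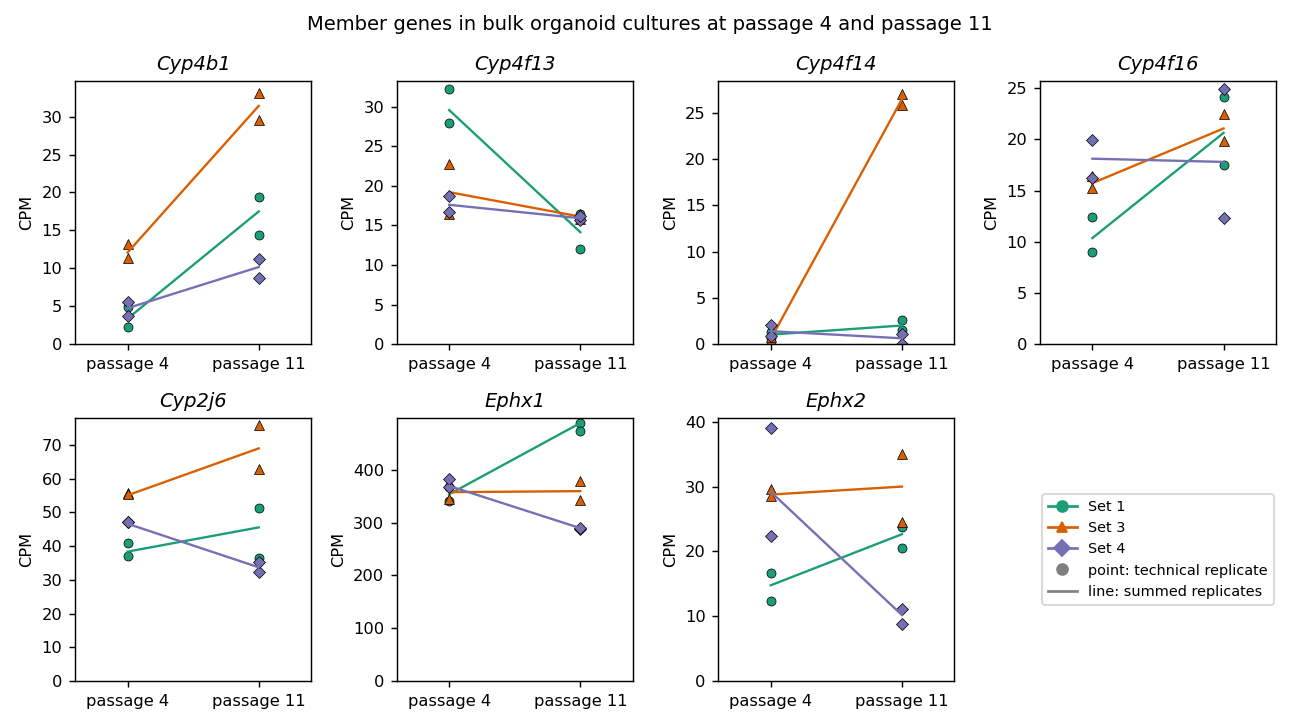
CPM of 7 of the 9 genes at passage 4 and passage 11 of the bulk cultures, by set, with each vertical axis starting at 0. Points are the technical replicates and lines join the summed values of a set. Cyp4b1 goes up in all 3 sets, Cyp4f14 reaches 26.4 CPM in Set 3 alone, and the lines of Ephx1 and Ephx2 cross.

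The proliferation markers also differed between passages, summing to 339 to 394 CPM at passage 4 and to 875 to 1233.8 CPM at passage 11, with 10 of 12 genes called higher. This direction is opposite to that in the study's text. Among single organoids, the same markers averaged 1062 CPM in Set 1 at passage 11, with organoids overlapping the other sets. In Sets 2, 3 and 4, at passage 3 or 4, they averaged 1493, 1347 and 1410 CPM. The reason for these opposite directions was not tested. Hepatocyte markers summed to 341 to 757 CPM at passage 4 and 818 to 1170 CPM at passage 11, with 2 of 8 called higher (3 higher and 1 lower with the set as a block). The macrophage list summed to 876 to 1160 CPM at passage 4 and 381 to 624 CPM at passage 11, with Cd14 lower (log2 fold-change -1.15, SE 0.21, edgeR adjusted p = 0.00520), and mitochondrial genes took 1.99% to 2.63% and 0.895% to 1.71% of counts. The part of these differences in the levels of Cyp4b1 and Cyp4f14 was not tested.

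Of the related pathways, the Nrf2 targets were the pathway list with most calls between passages, with 7 of 13 lower and none higher. Slc7a11, the cystine transporter, averaged 145 ± 61.6 CPM (SD, n = 3) at passage 4 and 17.0 ± 4.57 CPM at passage 11, a log2 fold-change of -3.02 (SE 0.31, edgeR adjusted p = 0.000469). Gclc, the catalytic subunit of glutathione synthesis, fell by 1.86 on the log2 scale (SE 0.24, adjusted p = 0.00122), and Srxn1, a sulfiredoxin, by 1.09 (SE 0.22, adjusted p = 0.00782). Of the PPAR-alpha targets, 4 of 18 rose and 1 fell (5 and 2 with the set as a block). Vnn1, a pantetheinase, fell by 2.11 on the log2 scale (SE 0.33, adjusted p = 0.00312). Of the nuclear receptors and regulators, 2 of 12 fell and none rose, including Ahr, the dioxin receptor (-1.61, SE 0.25, adjusted p = 0.00271).

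Among electron donors, Cyb5r3 and Cyb5b, both of the cytochrome b5 system, were 2 of 5 genes called, with log2 fold-changes of 0.74 (SE 0.14, edgeR adjusted p = 0.00613) and 0.72 (SE 0.13, adjusted p = 0.00451), while Por differed by -0.04 (SE 0.14, adjusted p = 0.861). Of the other enzymes of the families, 2 of 5 were called higher, Lta4h, the epoxide hydrolase that makes a leukotriene (0.78, SE 0.13, adjusted p = 0.00410), and Cyp4f40, named after its value was seen (2.58, SE 0.71, adjusted p = 0.0294). Neither of the 2 Cyp2c genes that could be tested was called (1 higher with the set as a block), nor was any of 11 genes of arachidonate release (1 lower with the block). The cyclooxygenase branch had 2 of 13 genes higher and 1 lower, and the lipoxygenase branch 2 of 7 higher.

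**Figure D3:**
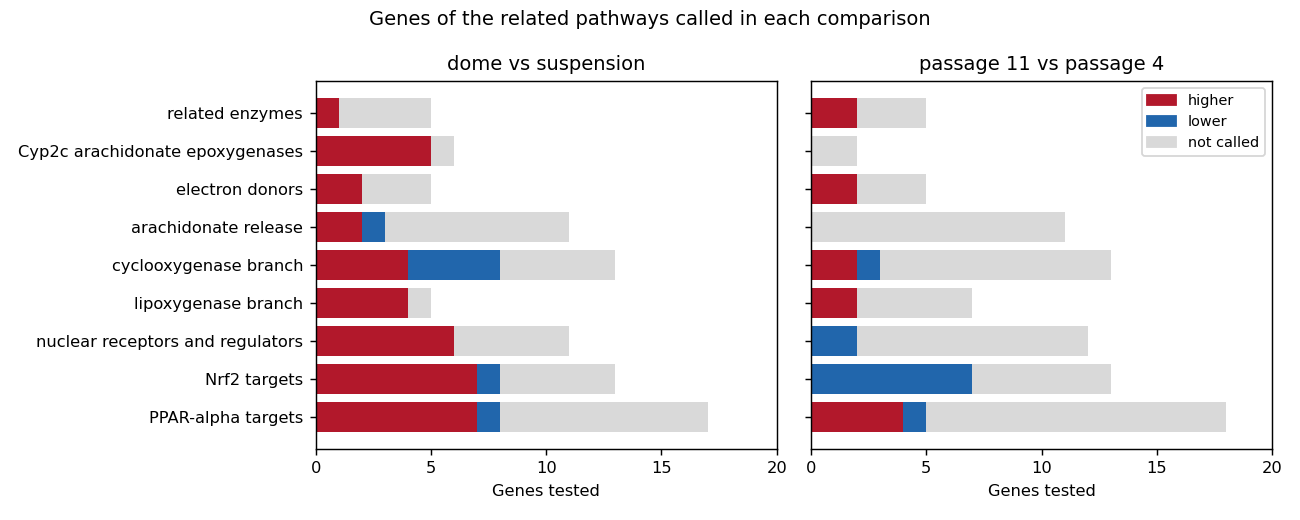
Number of tested genes of each related pathway list called higher, called lower or not called (edgeR adjusted p under 0.05), for domes against suspension on the left and passage 11 against passage 4 on the right. The plot shows 5 of 6 Cyp2c genes called higher in domes and 7 of 13 Nrf2 targets called lower at passage 11.

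The third group of comparisons was made between sets of single organoids. Cyp2j5 and Cyp2j9 had at most 5 counts in any organoid and did not pass the filter on low counts, so 7 of the 9 genes were tested. In comparisons that do not involve Set 1, Ephx2 differed most clearly. It was between 4.71 and 7.33 CPM in the 10 organoids of Set 2 (6.10 ± 0.779, mean ± SD), between 8.62 and 19.0 CPM in the 5 organoids of Set 3 (12.8 ± 4.16) and between 0 and 7.52 CPM in the 12 organoids of Set 4 (4.55 ± 2.12). Every organoid of Set 3 lay above every organoid of Sets 2 and 4. With all 42 organoids the sets overlapped, since Set 3 then began at 5.01 CPM while Sets 2 and 4 reached 7.37 and 7.56 CPM. Set 3 exceeded Set 2 by 1.06 on the log2 scale (SE 0.27, edgeR adjusted p = 0.00739), and Set 4 was below Set 3 by a log2 fold-change of -1.42 (SE 0.26, adjusted p = 0.000214). The call of Ephx2 was kept under all 15 alternatives run for each of these 2 comparisons. Sets 2 and 4, the neighbours in this order, differed by -0.36 with an adjusted p of 0.341.

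Set 3 and Set 2 were both at passage 3, and there 1 of 7 tested members was called, against 3.93% of 13927 genes called (1.88% higher) and 0.553% without overlap (0.316% higher). Cyp4f13 fell just outside the threshold in that comparison (log2 fold-change -0.61, adjusted p = 0.0544) and came inside it without the Set 3 organoid numbered 6 (-0.72, adjusted p = 0.0386), the range over alternatives being 0.0354 to 0.293. Between Set 4 and Set 2, 2 of 7 members were called lower, against 12.4% of genes called and 7.02% called lower. Cyp4f13 averaged 32.8 ± 13.95 CPM in Set 2 and 19.5 ± 4.82 CPM in Set 4 (log2 fold-change -0.72, SE 0.16, edgeR adjusted p = 0.00247). Its Set 2 values include the organoid numbered 2 at 69.3 CPM, where the next was at 37.4 CPM and the median was 28.3 CPM. No fit of Set 4 against Set 2 left out a single organoid, so this call was not checked without it. Cyp4f14 averaged 3.12 ± 1.88 CPM in Set 2 and 1.12 ± 0.824 CPM in Set 4 (-1.28, SE 0.42, adjusted p = 0.0366). The organoids of both sets overlapped for both genes, and Cyp4f14 lost its call when no filter on low counts was used (-1.25, adjusted p = 0.0564, the range over alternatives being 0.0165 to 0.0564).

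Between Set 4 and Set 3, 2 of 7 members were called lower, against 11.6% of genes called (7.89% lower) and 2.07% without overlap (1.55% lower). Beside Ephx2 this was Cyp2j6, at 18.6 ± 2.27 CPM in Set 3 and 11.6 ± 3.61 CPM in Set 4 (log2 fold-change -0.66, SE 0.22, edgeR adjusted p = 0.0391). The call of Cyp2j6 was lost without any one of the Set 3 organoids numbered 1, 3, 4 and 5 (log2 fold-changes -0.65, -0.67, -0.68 and -0.58, adjusted p = 0.0669, 0.0637, 0.0551 and 0.107), as well as with no filter on low counts (-0.62, 0.0940) and after thinning all libraries to the smallest total (-0.48, 0.230). Cyp4f16 and Ephx1 were called in none of the 3 comparisons. Their set means lay between 8.41 and 11.3 CPM and between 277 and 373 CPM.

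**Figure D4:**
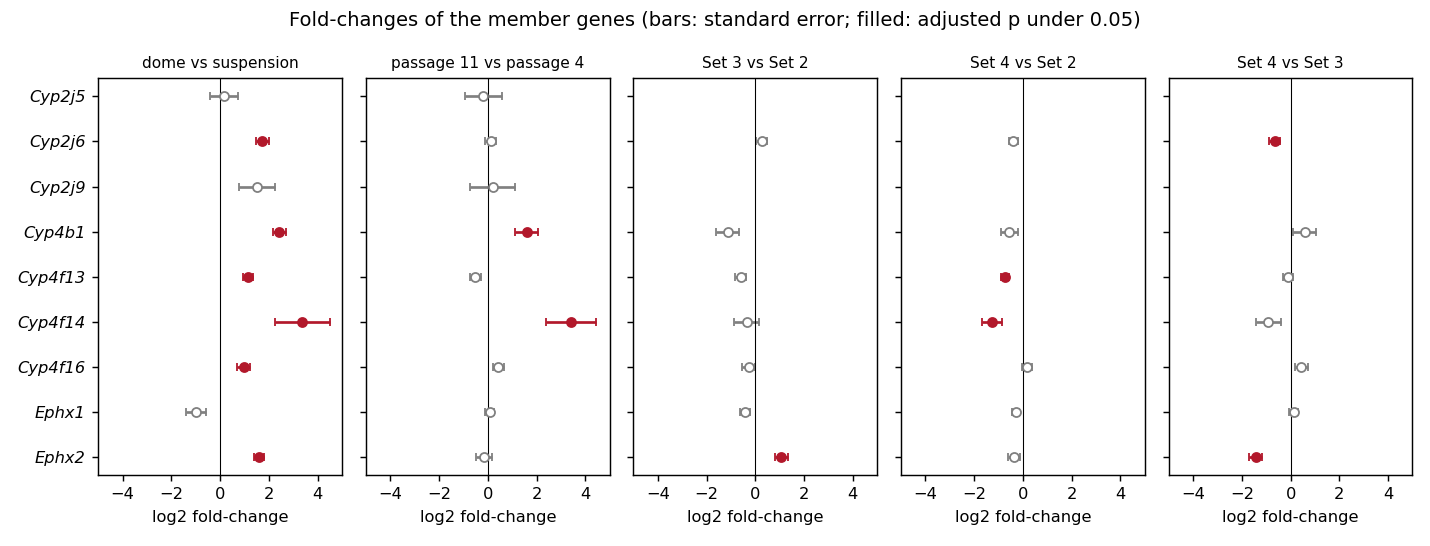
Log2 fold-change of each gene in the 5 comparisons tested, with bars for the standard error and filled points for an adjusted p under 0.05. In domes 6 genes are called higher, and Ephx2 is called in Set 3 against Set 2 and in Set 4 against Set 3. Cyp2j5 and Cyp2j9 did not pass the filter among single organoids.

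The levels in Set 1 entered the choice of the genes and are given as a description. Cyp4b1 in the 8 organoids of Set 1 had a lowest value of 20.97, a median of 41.98 and a highest value of 236 CPM, and 2 organoids at 144 and 236 CPM stood above the other 6. The highest value in any organoid of the other sets was 18.2 CPM, so no organoid of Set 1 overlapped with them among these 35. With all 42 organoids, Set 1 began at 14.05 CPM while Sets 2 and 3 reached 19.3 and 21.3 CPM, so the sets overlapped. The mean was 76.5 ± 74.7 CPM in Set 1, 11.0 ± 4.62 CPM in Set 2, 4.99 ± 2.38 CPM in Set 3 and 7.42 ± 2.62 CPM in Set 4. Sets 2, 4 and 3, in this order of means, were not called apart in Cyp4b1. The edgeR adjusted p was 0.295 for Set 4 against Set 2, 0.453 for Set 4 against Set 3 and 0.107 for Set 3 against Set 2. These tests took the spread from all 4 sets, the widely spread Set 1 included. Set 3 against Set 2 had a log2 fold-change of -1.13 (SE 0.47), with adjusted p from 0.0514 to 0.347 over alternatives. On the log2 scale Set 1 exceeded the mean of the other sets by 2.898, rank 9 of 13927 genes, and by 2.44 when the libraries left out by the study were included.

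The other members described in the same way were closer to the remaining sets. Ephx2 averaged 16.4 ± 5.92 CPM in Set 1 and exceeded the mean of the other sets by 1.14 on the log2 scale, Cyp4f14 by 0.54, Cyp2j6 by 0.46 and Cyp4f13 by 0.38, whereas Ephx1 and Cyp4f16 differed by 0.09 and 0.01. Set 1 was the only set at passage 11 among the organoids.

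**Figure D5:**
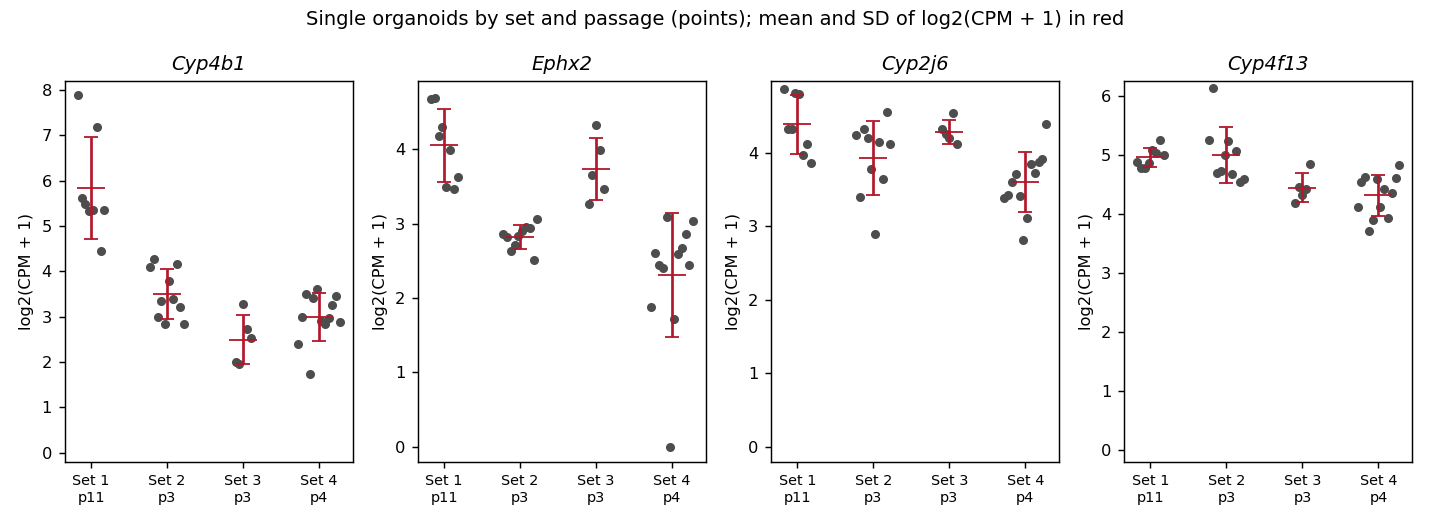
Cyp4b1, Ephx2, Cyp2j6 and Cyp4f13 in the 35 single organoids as log2(CPM + 1), by set and passage (p). Points are organoids, and red lines are the mean and SD. Set 1 lies above the other sets for Cyp4b1, with 2 organoids above the rest, and Set 3 lies above Sets 2 and 4 for Ephx2.

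Organoids of the same set also differed from each other. The SD of Cyp4b1 was 97.7% of its mean in Set 1, whose values entered the choice of the genes, and 41.9%, 47.6% and 35.3% in Sets 2, 3 and 4. Cyp4f14, at low counts, had 60.2%, 54.5% and 73.7% in Sets 2, 3 and 4. In Set 2, Cyp4f13 ranged from 22.5 to 69.3 CPM and Ephx1 from 251 to 674 CPM.

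To describe which genes varied with the members from organoid to organoid, Pearson correlations of log2 CPM were computed over the 35 organoids after subtraction of the set means, against up to 6484 genes. The points share library depth and composition, and the values are descriptions. Cyp4b1 was most like Pdzk1ip1 (r = 0.72), AA986860 (0.65), Lrrc26 (0.62), Glrx (0.61) and Mup20 (0.60). The SD of log2 CPM of Cyp4b1 was 1.13 in Set 1 and 0.57, 0.58 and 0.56 in Sets 2, 3 and 4. Spread was not scaled by set, so organoids of Set 1, whose values entered the choice of the genes, weigh more for Cyp4b1. Cyp2j6 was most like Zdhhc20 (0.74), Stx3 (0.69), Actn4 (0.67), Pabpn1 (0.67) and Stk40 (0.65). Cyp4f13 was most like Igsf9 (0.82), Hsd17b11 (0.81), Adprh (0.81), Pqlc1 (0.78) and Qars (0.77).

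Ephx1 had the highest values, with Cox7a2l (0.89), Slc39a11 (0.89), Grn (0.89), Slc25a11 (0.87) and Gm10073 (0.86). Cyp4f16 was most like Sgf29 (0.82), Rnh1 (0.82), Smarcb1 (0.81) and Laptm4b (0.80). Ephx2 had the lowest, with Ndufaf7 (0.63), Bysl (0.61), Rpl35a-ps5 (0.59), Leprotl1 (0.59) and Gm15710 (0.57). By Spearman's rho, 2 of the 5 genes most like Cyp4b1 remained among its 5 highest, 3 each for Cyp2j6, Cyp4f13 and Ephx1, 4 for Cyp4f16 and 0 for Ephx2. No gene was named for more than 1 member.

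Among the related pathways in organoids, few genes were called between Sets 2, 3 and 4. Of 13 Nrf2 targets, 3 were higher in Set 3 than in Set 2 and 3 were lower in Set 4 than in Set 3. Gclm, the modifier subunit of glutathione synthesis, averaged 191 ± 56.2 CPM in Set 2, 337 ± 119 CPM in Set 3 and 201 ± 41.3 CPM in Set 4, with log2 fold-changes of 0.81 (SE 0.20, edgeR adjusted p = 0.00469) and -0.74 (SE 0.19, adjusted p = 0.00767). Vnn1, a PPAR-alpha target, averaged 93.6 ± 19.9 CPM, 185 ± 39.3 CPM and 54.6 ± 23.9 CPM in these sets, and the step from Set 3 to Set 4 was -1.75 (SE 0.23, adjusted p = 5.52e-07). Like Ephx2, both genes had their highest of these 3 means in Set 3. Of 12 tested genes of the cyclooxygenase branch, 1 was higher and 2 were lower in Set 4 than in Set 3. Ptgs1, a cyclooxygenase itself, was lower (-0.85, SE 0.19, adjusted p = 0.00174), as was Hpgd (-0.81, SE 0.25, adjusted p = 0.0297). Ptgr1, a prostaglandin reductase, was higher (0.78, SE 0.21, adjusted p = 0.0108). Of 11 tested genes that release or recycle arachidonate, 1 was higher and 1 was lower in Set 4 than in Set 3. Pla2g12a, a secreted phospholipase, was higher (0.68, SE 0.22, adjusted p = 0.0384), and Acsl4 was lower (-0.78, SE 0.22, adjusted p = 0.0143). No tested Cyp2c gene or other enzyme of the families was called between these sets.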

How the data were processed

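The sources used here describe libraries with unique molecular identifiers, sequenced in pairs and processed by the authors with zUMIs, STAR, SAMtools 1.9 and featureCounts against GRCm38, with down-sampling by library size. The authors deposited whole-number counts per gene in 3 tables, and no source used here says whether these count molecules or reads. From the 60 libraries, the 7 single organoids that the study dropped in its quality control were also left out here. Technical replicates of bulk cultures were summed.

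Counts were analysed in R 4.3.3 with edgeR 4.0.16, namely filterByExpr with a minimum count of 3, TMM scaling and quasi-likelihood tests, with Benjamini-Hochberg adjustment over all genes and a threshold of 0.05. Single organoids were fitted together over 4 sets and adjusted over all 6 comparisons. The computation was tested on simulated data. limma 3.58.1 (voom), DESeq2 1.42.0, other scaling and filters, thinning, replicate blocks and leave-one-out fits were alternatives. Figures were drawn in Python 3.11.15.

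Same-numbered dome and suspension libraries were taken to share a pool, although the sources used here do not give the pool of each number. The residuals of every such pair correlated (0.153, 0.165 and 0.191), and pairs with different numbers were not compared. Bulk libraries of a set share a mouse (0.110, 0.0283 and 0.108 for Sets 1, 3 and 4). The tests reported had no block, and fits with the pool or set as a block are given beside the results they change. Replicates differed by more than sampling noise. The members, lists and tests were chosen with earlier results of these data known. Named were all members, of each pathway list up to 4 called genes of average log2 CPM of at least 3 by size of change, and 5 genes per member by likeness among those of at least 4. A few genes that this rule names are not reported here. Confidence in a zero count is limited to 3 counts and covers counting error only.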

Additional observations from a re-analysis of the deposited data

Results flagged for a closer look

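One of 22 checks of a member's values within a group found a sample far from the others, where chance alone gives about 1 in 20. Cyp4f13 stood at 69.3 CPM in the Set 2 organoid numbered 2, and the next of the 10 organoids of that set stood at 37.4 CPM, a gap of 0.68 of the group's range.

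For 3 members, sets of bulk cultures moved in opposite directions from passage 4 to passage 11, with both technical replicates apart in each of the sets named. The log2 difference of Cyp2j6 was 0.32 in Set 3 and -0.46 in Set 4. That of Ephx1 was 0.47 in Set 1 and -0.35 in Set 4. That of Ephx2 was 0.60 in Set 1 and -1.48 in Set 4. The difference between sets was not tested, as each set has 1 culture per passage.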

How the results depend on the processing

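Of 515 log2 fold-changes of members recomputed under alternatives, 458 kept their direction and side of the threshold. A call was lost in 28 and gained in 9. The sign changed in 20, none of them with a call under the alternative. Among these 20 was Cyp4f14 in domes, which was called with all cultures and was at -0.96 without dome replicate 1. The number of members called higher at passage 11 was 1 rather than 2 with a minimum count of 10, limma-voom, DESeq2 or technical replicate 1 alone, 0 after thinning, and 0 to 2 with a culture left out. For domes the number called in either direction was 4 after thinning, 7 without a filter and 4 to 6 with a culture left out, and limma-voom lost Cyp4f14 (2.54, adjusted p = 0.162) and called Ephx1 lower (-1.23, adjusted p = 0.0376). For Set 3 against Set 2 it was 2 rather than 1 with RLE size factors, a minimum count of 10 or DESeq2 and 1 to 2 with an organoid of Set 3 left out. For Set 4 against Set 2 it was 1 without a filter, and for Set 4 against Set 3 it was 1 without a filter or after thinning and 1 to 2 with an organoid left out.

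The sign of Cyp2j5 in domes turned with DESeq2 (-0.12), thinning (-0.62) and the replicate block (-0.31), and between passages with limma-voom (0.47), the replicate block (0.060) and technical replicate 1 alone (0.48). With all 42 organoids, Cyp4f16 in Set 4 against Set 2 was -0.0017 and Ephx1 in Set 4 against Set 3 was -0.13. With a library left out, log2 fold-changes in domes ran from -1.76 to 0.45 for Cyp2j5, -1.29 to 1.93 for Cyp2j9 and -0.96 to 3.89 for Cyp4f14. Between passages they ran from -0.65 to 0.38 for Cyp2j5, -0.21 to 0.29 for Cyp2j6, -0.25 to 0.44 for Cyp2j9, -0.14 to 0.24 for Ephx1 and -0.47 to 0.11 for Ephx2, and for Cyp4f13 in Set 4 against Set 3 from -0.18 to 0.0024. The cause was not tested.

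Pairing changed the calls of Ephx1 and Cyp4f14 in domes and no other member call, and the count of members called in domes was 6 with the replicate block. Organoid numbers share only a number, and using them as a block changed no member call but took the genes called from 1722 to 897 for Set 4 against Set 2 and from 1610 to 731 for Set 4 against Set 3. Over all genes, Set 3 against Set 2 had 548 calls, 252 with all 42 organoids, 180 adjusted within the comparison and 61 (68.9% rather than 47.8% of them higher) in a fit of these sets alone. Set 4 against Set 2 had 977 with all 42 organoids and 1044 after thinning, and Set 4 against Set 3 had 716 and 973, 2839 in a fit of these sets alone and 803 to 1895 with an organoid left out. Passage had 2784, with 1811 after thinning, 1717 with technical replicate 1 alone and 1552 to 2244 with a culture left out, and domes had 3779, with 1893 to 3837. Depth limits Cyp2j5 and Cyp2j9, which had at most 5 counts in any organoid.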
